A study of Mus musculus with 24 samples.

Results

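The Bcl2 family decides whether a stressed cell opens its mitochondria and dies. Here 10 of its genes were followed through the developing mouse cortex with and without CEP135, a structural protein of the centriole. The members were chosen by gene symbol and not by any measured value: Bax and Bak1, Bbc3, Pmaip1, Bcl2l11, Bid and Bad, and Bcl2, Bcl2l1 and Mcl1. All 10 were present among the 54658 genes of the deposited table, and each had a value in all 24 libraries. The libraries came from the dorsal telencephalon of 12 embryos, with 3 libraries in each of 8 groups. Control embryos were Cep135 (+/+) and mutant embryos were Cep135 (-/-), born of heterozygous parents in 3 sets by the prefix of their titles, each with both genotypes, on a C57BL/6J background. The description lines of E11.5 mutants 2 and 3 spell that prefix in another way, which no control shares, so a shared litter with controls 2 and 3 is not certain. The mutant allele, called Δ8 in the study, is a CRISPR/Cas9 deletion carried in every cell of the embryo, so tissues other than cortex lacked the protein too, and no drug was given to any group. Cortices were taken whole at E11.5 (the embryonic day, controls and mutants numbered 1 to 3) and at E14.5 (controls 3, 4 and 5, mutants 1, 2 and 6). The cortex of mutant 6 is E14.5 by its title and source but E11.5 by its description, and was taken as E14.5. Cells from the same 6 E14.5 cortices were also grown with EGF and FGF2 as incipient neurospheres and read after 12 hours and after 24 hours.

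BAX and BAK are the effectors of the pathway, which form the pores in the outer mitochondrial membrane through which cytochrome c escapes to start the caspase cascade. BCL2, BCL-XL (the product of Bcl2l1) and MCL1 hold the effectors in check. The BH3-only proteins tip this balance toward death: PUMA (Bbc3) and NOXA (Pmaip1) are textbook transcriptional targets of p53, BIM (Bcl2l11) is induced when growth factor signalling falls, and BID and BAD link the mitochondria to death receptors and to growth factor kinases. In the developing nervous system the family sets how many progenitors and newborn neurons survive, and much of its control lies in protein modification and binding that RNA does not show.

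Libraries were made from the 3′ ends of polyadenylated RNA, so a read stands for a transcript whatever its length. Values are normalized read counts, that is, reads divided by 1 scaling factor for each library. Between 4732781 and 11645213 reads fell on genes in a library, and 1 read was worth 0.645 to 1.69 normalized counts. Cep135 itself was read at 246 to 375 at E11.5 and did not separate the genotypes at any stage (log2 difference, mutant over control, -0.12 at E11.5, 95% interval -0.47 to 0.22). The edit lies in the second exon, and the reads come from the transcript's 3′ end, so they do not check the labels. Cdkn1a, the p53 target that encodes the cell cycle inhibitor p21 and that the study singled out in these samples, was higher in all mutant libraries than in all control libraries of the same stage, by log2 differences of 1.16 in the younger and 0.83 in the older cortex, and of 0.80 in the 12-hour and 1.02 in the 24-hour cultures, with limma adjusted p-values of 0.197, 0.310, 0.913 and 0.0109. The 24-hour call ended with sex as a term (adjusted p = 0.106), without control 5 (0.0539) and with the log2 share of Gm42418, a gene that overlaps ribosomal RNA sequence, as a term (difference 0.47, adjusted p = 0.939), and the 12-hour difference was 0.28 with sex as a term. Over the 12 cortices, with age as a term, Cdkn1a differed by 0.99 (95% interval 0.66 to 1.32, limma adjusted p = 0.0152). Summed markers of postmitotic neurons rose from 7549 to 11592 at E11.5 to 26709 to 38153 at E14.5. All 8 apical progenitor and all 8 neuronal markers were read in every group. Erythroid markers summed to 38256 to 153171. Endothelial markers summed to 1037 to 1583 in cortex and 25.3 to 125 in culture. Because whole tissue was read, fewer cells of a type and less RNA in each cell cannot be told apart.

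Taken over all 24 libraries, Bbc3 and Pmaip1 covered a wide range of levels, and Mcl1 and Bcl2l1 a narrow one. Mcl1 ran from 526 to 759 normalized counts, Bcl2l1 from 369 to 749.8 and Bcl2 from 202 to 476. Among the BH3-only genes, Bad ran from 193 to 641, Bbc3 from 69.4 to 409.9, Bcl2l11 from 113 to 281, and Pmaip1 from 0.872, which was 1 read, to 49.5. Bid stayed at or under 29.7 and had no read in the 12-hour library of mutant 6, where a count of 0 allows up to 3 reads or 2.69 normalized counts. The effectors lay between these, Bax from 79.0 to 238 and Bak1 from 22.0 to 175. These limits cover counting error only.

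**Figure D1:**
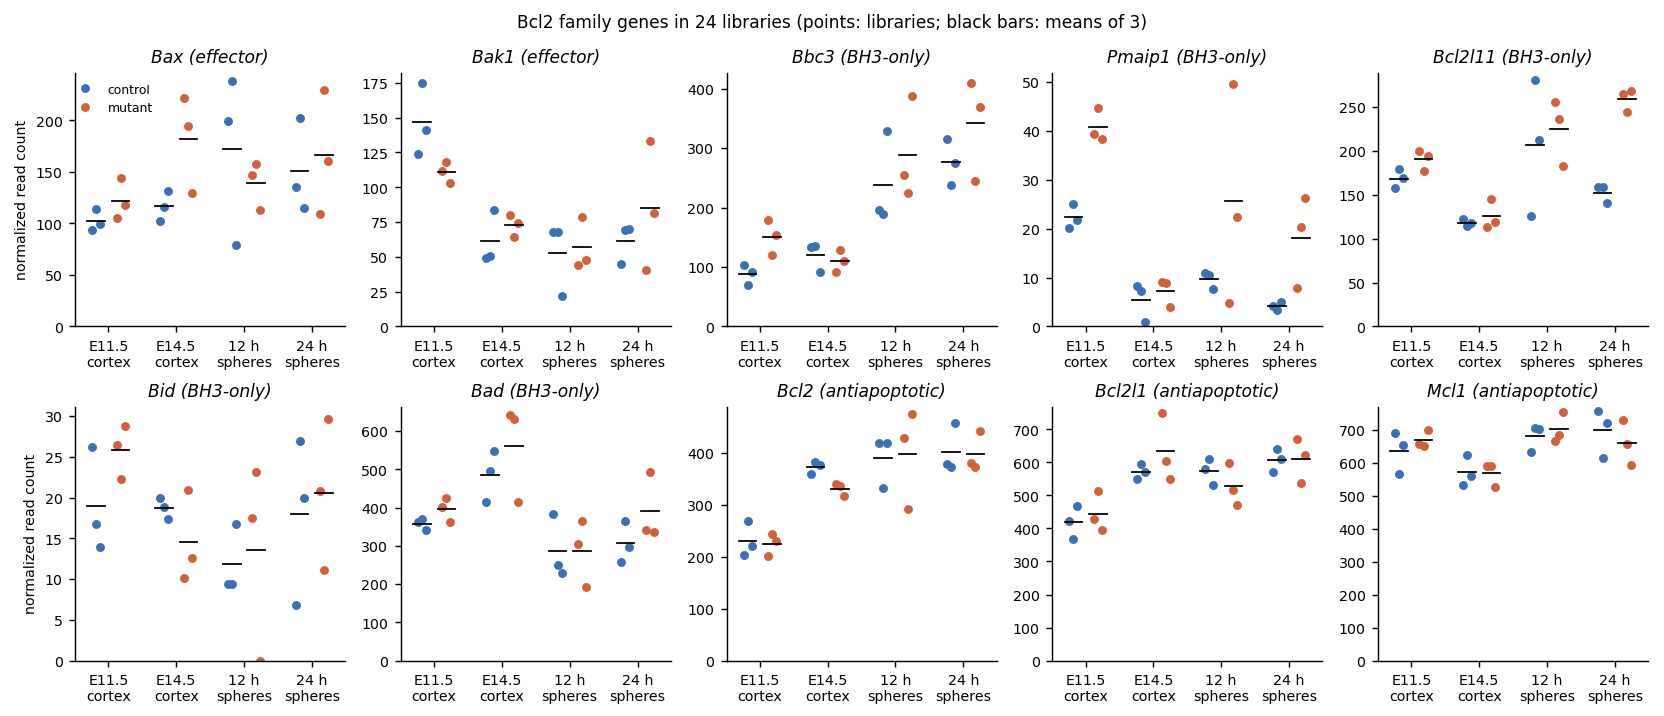
Normalized read count of each member in each of the 24 libraries. Controls and mutants stand side by side at E11.5, at E14.5, and after 12 and 24 hours of culture. The vertical axis is linear, with its own scale in each panel, and each point is 1 library. Bbc3 stands at 69.4 to 179 in the 12 cortices and at 189 to 409.9 in the 12 cultures, while Mcl1 lies between 526 and 759 throughout.

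The comparison of mutant with control cortex at E11.5 asks whether the family responds to loss of CEP135 before neurogenesis is well under way. Here the BH3-only genes Bbc3 and Pmaip1 stood higher in every mutant than in every control, and the effector gene Bak1 stood lower, but no member passed the test across all genes. Bbc3 (ENSMUSG00000002083, GRCm38 chr7:16308393-16318205, plus strand), which encodes PUMA, was read at 103, 69.4 and 90.9 in controls 1 to 3 and at 179, 119 and 154 in mutants 1 to 3. The lowest mutant lay above the highest control. Means were 87.7 ± 16.9 and 151 ± 30.1 (SD, n = 3 each), a log2 difference of 0.77 (SE 0.20, 95% interval 0.32 to 1.23) with limma adjusted p = 0.546.

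Pmaip1 (ENSMUSG00000024521, on chromosome 18), which encodes NOXA, was read at 20.2, 25.1 and 21.8 in controls and at 39.3, 44.6 and 38.2 in mutants. The 2 groups did not overlap and each was tight. The log2 difference was 0.84 (SE 0.24, 95% interval 0.31 to 1.38, limma adjusted p = 0.573). Bak1 (ENSMUSG00000057789, chr17:27019810-27029009, minus strand) was read at 124, 175 and 141 in controls against 112, 118 and 103 in mutants, with every mutant below every control. Its log2 difference was -0.39 (SE 0.17, 95% interval -0.76 to -0.02, limma adjusted p = 0.667). With 3 libraries against 3, the 2-sided exact permutation test gave 0.1 for each of these genes, the smallest p it allows. Without control 2 the Bak1 difference was -0.25, and with the log2 share of Gm42418 as a term -0.13.

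Thus 0 of 10 members were called at E11.5 by limma at an adjusted p under 0.05, against 0.0149% of the 13406 genes tested, and 3 of 10 had an unadjusted p under 0.05, against 7.39% of all genes. The same 3 were the members whose groups did not overlap, 2 higher and 1 lower, where 13.3% of all genes showed no overlap. The remaining members overlapped between genotypes. Differences were positive for 8 of 10 members with a median of 0.16, beside 52.9% of all genes and a median of 0.02 over them. Liver genes summed to 15.6 to 774 in these mutants and 6.995 to 14.2 in controls, where 5 of the 11 were at 0. Microglial markers, which no gate removed, summed to 484 to 655 in these mutants and 313 to 474 in controls, and Gm42418 took 12.3 to 16.7% of reads in mutants and 6.11 to 12.8% in controls. With the log2 share of Gm42418 as a term the Bbc3 difference was 0.45 (limma adjusted p = 0.921), and the part of the liver and microglial genes was not tested.

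At E14.5, when the cortex is rich in neurons, the member with the smallest p was Bax, and no member was called. Bax (ENSMUSG00000003873, chr7:45461697-45466898, minus strand), the effector that p53 also induces, was read at 102, 116 and 132 in controls 3, 4 and 5 and at 221, 194 and 130.0 in mutants 1, 2 and 6. Mutants 1 and 2 stood above all controls and mutant 6 fell among them. The log2 difference was 0.61 (SE 0.21, 95% interval 0.14 to 1.07, limma adjusted p = 0.497).

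Mutants 1 and 2 were female by their X- and Y-linked transcripts, and mutant 6 and the 3 controls were male. With sex as a term the Bax difference was 0.16 (limma adjusted p = 0.884), which rests on mutant 6 alone against the male controls, and without mutant 6 it was 0.83 (adjusted p = 0.119). Bcl2 (ENSMUSG00000057329, chr1:106538178-106714274, minus strand), the founding antiapoptotic member, was read at 359, 383 and 377 in controls and 339.9, 337 and 316 in mutants. Every mutant lay below every control, by a log2 difference of -0.17 (SE 0.13, 95% interval -0.45 to 0.11, limma adjusted p = 0.692).

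Bbc3 did not separate the genotypes at this age, with 134, 135 and 91.5 in controls and 91.5, 129 and 109.6 in mutants. Pmaip1 had 1 to 10 reads in each E14.5 library, was under the minimum mean of 10 and was not tested: 8.23, 7.26 and 0.872 in controls, 9.03, 8.83 and 3.92 in mutants. Of the 9 members tested 0 were called by limma (0.0736% of all genes were), 0 by edgeR and 0 by DESeq2; 1 had an unadjusted p under 0.05 (9.1% of all genes), and 1 had groups that did not overlap (13.7% of all genes). The members' median difference was 0.08, beside 0.01 over all genes. Neuronal markers summed to 26709 to 28675 in these mutants and 35275 to 38153 in controls, and microglial markers to 852 to 1036 against 468 to 524. Liver genes summed to 6.62 to 14.7 in these mutants and 10.6 to 928 in controls. The part of these in the member values was not tested.

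When the 12 cortices of both ages were fitted together with age as a term, Bax had the smallest p of the members. Its log2 difference was 0.43 (SE 0.14, 95% interval 0.12 to 0.73), with limma adjusted p = 0.403 and an exact permutation p within age of 0.02 before any correction over the 10 members. Pmaip1 differed by 0.71 (95% interval -0.06 to 1.49) and Bbc3 by 0.33 (95% interval -0.07 to 0.72), values that were 0.40 without E14.5 control 5 and 0.21 without E11.5 control 2. No member was called by limma (0.139% of all genes were), and 1 of 10 had an unadjusted p under 0.05 (8.71% of all genes).

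The cultures ask the same of cells taken from the cortex and pushed to proliferate. After 12 hours of culture no member differed between genotypes beyond the spread of the libraries. Bbc3 was read at 195, 189 and 329 in controls 3, 4 and 5 and at 254, 224 and 387 in mutants 1, 2 and 6, a log2 difference of 0.29 (95% interval -0.32 to 0.90, limma adjusted p = 0.916), and 0.75 (adjusted p = 0.270) with sex as a term. Leaving out 1 library gave 0.06 to 0.54. Pmaip1 was read at 11.0, 10.6 and 7.59 in controls and at 4.87, 49.5 and 22.4 in mutants. Mutant 1 lay below all controls and the other two above them, so the difference of 0.85 had an interval from -1.13 to 2.82 and was 0.14 without mutant 2 and 1.70 without mutant 1. Bax and Bak1 in control 5, at 79.0 and 22.0, were their lowest values in the series.

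Of 10 members 0 were called by limma at 12 hours (0% of all genes were), 0 by edgeR and 0 by DESeq2, 0 had an unadjusted p under 0.05 (4.85% of all genes) and 0 had groups apart (11% of all genes). For Mcl1, which encodes a short-lived guard of newborn neurons, the difference lay between -0.30 and 0.39, and for Bcl2l1 between -0.50 and 0.26. Liver genes summed to 189 to 845 in the 12-hour mutants and 1.57 to 1352 in controls. Intermediate progenitor markers summed to 1447 to 1662 in these mutants and 1230 to 1316 in controls, and endothelial markers to 91.6 to 125 against 31.1 to 69.3. Microglial markers summed to 7.37 to 21.4 in mutants against 28.2 to 53.5. Apical progenitor, neuronal and erythroid sums overlapped between genotypes. The part of all these in the member values was not tested.

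After 24 hours Bcl2l11 had the smallest p of the members. Bcl2l11 (ENSMUSG00000027381, chr2:128126038-128162547, plus strand), which encodes BIM, was read at 158, 158 and 140.0 in controls and at 265, 244 and 268 in mutants. The 3 mutants lay close together and well above the 3 controls, with means of 259 ± 13.2 and 152 ± 10.6 (SD, n = 3 each). The log2 difference was 0.76 (SE 0.17, 95% interval 0.40 to 1.13), 1.70-fold on the log2(value + 1) scale, with limma adjusted p = 0.0838 and exact permutation p = 0.1, the smallest possible.

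This was the member nearest the threshold in any genotype comparison, and its call depended on the tool and on the filter. The adjusted p was 0.0145 by DESeq2, 0.0765 by edgeR, 0.0433 by limma with no filter on low values and 0.217 with sex as a term. Gm42418 took 20.5 to 23.0% of reads in the 24-hour mutants and 6.26 to 13.9% in controls, and with its log2 share as a term the Bcl2l11 difference was 0.57 (limma adjusted p = 0.939). Liver genes summed to 111 to 375 in these mutants and 1.69 to 6.83 in controls, where 8 of the 11 were at 0 in all 3 libraries, apical progenitor markers to 12079 to 13278 against 9389 to 10593, intermediate progenitor markers to 1270.5 to 1367 against 989 to 1095, and reads on genes ran from 7903426 to 11645213 against 4732781 to 5709443. The part of these in the Bcl2l11 value was not tested.

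Pmaip1 was also apart at 24 hours, at 4.1, 3.37 and 5.0 in controls and 7.88, 20.2 and 26.2 in mutants. These values rest on 3, 2 and 4 reads in controls and 11, 20 and 30 reads in mutants. All mutants lay above all controls, by a log2 difference of 1.75 (SE 0.72, 95% interval 0.21 to 3.30, limma adjusted p = 0.395). Bbc3 overlapped, with 315, 238 and 275 in controls and 409.9, 245 and 369 in mutants.

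In all, 0 of 10 members were called at 24 hours by limma (0.271% of all genes were), 0 by edgeR and 1, Bcl2l11, by DESeq2. An unadjusted p under 0.05 was reached by 2 of 10 (10.6% of all genes), and the same 2 had groups apart (16.2% of all genes). Pmaip1 was among these 2 and entered the test only through its mutant values. Differences were positive for 8 of 10 members, with a median of 0.28, beside 48.3% of all genes and a median of -0.01 over them. The antiapoptotic genes overlapped between genotypes, with differences of -0.01 for Bcl2 (95% interval -0.34 to 0.31), 0.00 for Bcl2l1 (-0.29 to 0.30) and -0.08 for Mcl1 (-0.38 to 0.22).

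**Figure D2:**
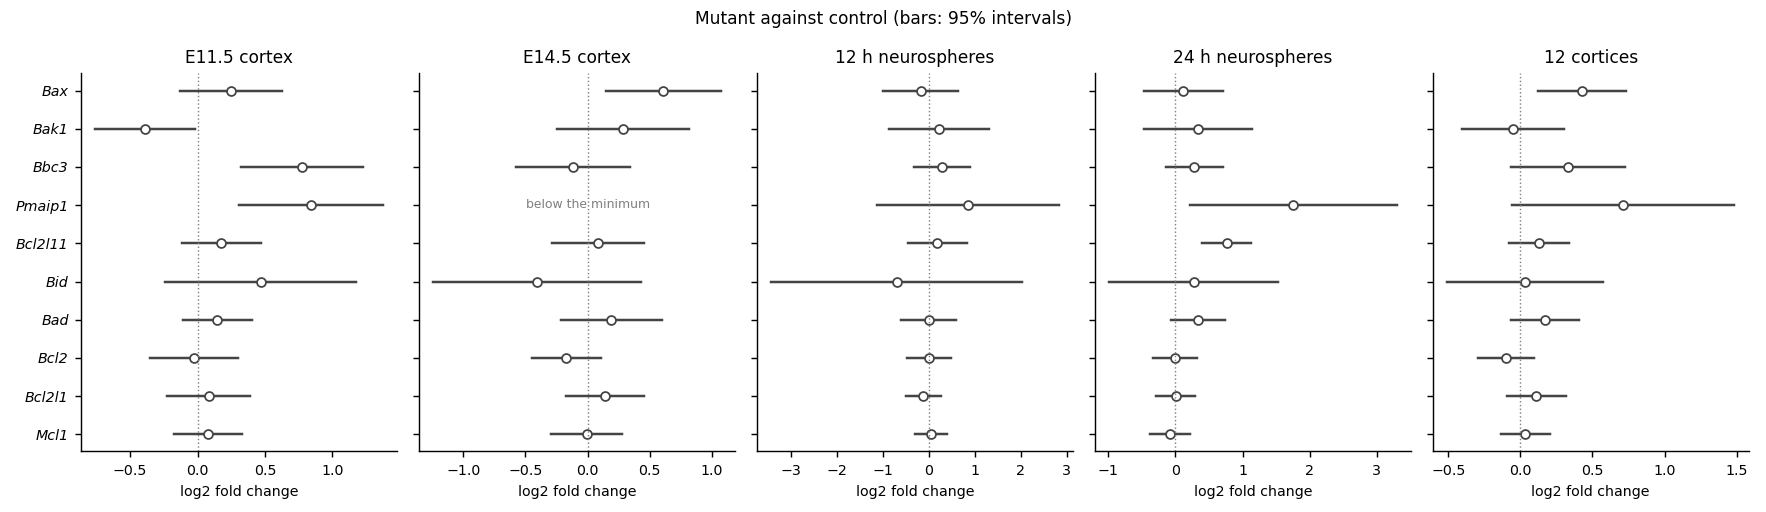
Log2 difference, mutant over control, of each member at each stage (horizontal axis, log2(normalized read count + 1), with its own scale in each panel); points are limma estimates and bars 95% intervals. The intervals for Bbc3 and Pmaip1 at E11.5 (0.32 to 1.23 and 0.31 to 1.38), for Bax at E14.5 (0.14 to 1.07), and for Bcl2l11 and Pmaip1 at 24 hours (0.40 to 1.13 and 0.21 to 3.30) lie above 0, the interval for Bak1 at E11.5 (-0.76 to -0.02) lies below it, and no member was called by limma. At 24 hours Pmaip1 passed the minimum mean only through the mutants.

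Whether the mutant effect itself changed with age or culture was tested by interaction in limma. The exact permutation p given beside it shuffles genotype labels within each stage. It therefore assumes no mutant effect at either stage, and a small value can come from an effect at one stage alone. It does not test whether the effect changed. Between ages the Bbc3 effect fell by 0.89 on the log2 scale (95% interval -1.54 to -0.24, unadjusted p = 0.0106, limma adjusted p = 0.620, exact permutation p = 0.04). The Bak1 effect moved the other way, by 0.67 (95% interval 0.04 to 1.30, limma adjusted p = 0.620, exact permutation p = 0.055). No member was called by limma in the age interaction, as no gene was (0% of all genes), and 2 of 10 had an unadjusted p under 0.05 (7.84% of all genes).

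Against the E14.5 cortex, the mutant effect on Bcl2l11 in 24-hour culture was higher by 0.68 (95% interval 0.21 to 1.16, unadjusted p = 0.00768, limma adjusted p = 0.724, exact permutation p = 0.07). That was 1 of 9 members tested at an unadjusted p under 0.05 (6.16% of all genes), with 0 called by limma (0% of all genes), edgeR or DESeq2. At 12 hours against the cortex, 0 of 10 members were called by limma (0% of all genes), edgeR or DESeq2 and 0 had an unadjusted p under 0.05 (5.32% of all genes). Between 12 and 24 hours the Bcl2l11 effect differed by 0.58 (95% interval -0.16 to 1.32), with 0 of 10 members called by limma (0% of all genes), edgeR or DESeq2 and 0 at an unadjusted p under 0.05 (2.38% of all genes). So Bbc3 at E11.5 and Bcl2l11 at 24 hours are not shown to be particular to those stages.

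The rest of the death pathway gives the setting for these values. Among 12 p53 targets linked to apoptosis, a list put together with the study's account of p53 in these samples known and so not independent evidence of direction, 12 of 12 were positive in mutants at E11.5 (median log2 difference 0.42), 9 of 11 tested at E14.5 (0.56), 11 of 12 at 12 hours (0.34) and 11 of 12 at 24 hours (0.50). Over all genes 52.9, 51.7, 47.8 and 48.3% were positive, with medians between -0.02 and 0.02. At 24 hours 1 of these (0.271% of all genes) was called by limma, Ccng1, which encodes cyclin G1 (log2 difference 1.06, SE 0.16, adjusted p = 0.0150). Over the 12 cortices 3 were called higher and 0 lower (0.139% of all genes): Eda2r, which encodes a TNF receptor family member, by 2.28 (adjusted p = 0.00115), Ccng1 by 0.82 (adjusted p = 0.00461) and Sesn2, a stress-induced regulator of growth signalling, by 1.01 (adjusted p = 0.0367). At E11.5, E14.5 and 12 hours 0 were called by limma, with 7, 7 and 3 higher and 0 lower at an unadjusted p under 0.05, against 7.39, 9.1 and 4.85% of all genes in either direction.

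Other Bcl2 family genes, the mitochondrial machinery downstream of the effectors, and the death receptor pathway had 0 genes called by limma in any genotype comparison. Of 15 other family genes 6 to 8 were tested, and at most 1 in a comparison had an unadjusted p under 0.05. That was Bnip3, a mitophagy receptor, at E11.5 (log2 difference 0.46, unadjusted p = 0.0140), and Hrk, a BH3-only gene of neurons, in culture. Hrk was lower in mutants by log2 differences of -0.58 at 12 hours (adjusted p = 0.913) and -0.56 at 24 hours (adjusted p = 0.0908). Of 21 genes of the mitochondrial machinery 19 or 20 were tested, with medians between -0.04 and 0.08 and at most 1 gene at an unadjusted p under 0.05 in any single stage. These were Htra2, a mitochondrial protease (-0.46 at E11.5), and Aifm1, an oxidoreductase released from dying mitochondria (0.51 at 12 hours). Over the 12 cortices Apaf1, the core of the apoptosome, and Birc2, of the inhibitor of apoptosis family, differed by -0.41 and -0.28 (limma adjusted p = 0.443 and 0.387). They were the 2 genes of the list at an unadjusted p under 0.05. Of 10 death receptor genes 7 or 8 were tested, with 1 or 2 at an unadjusted p under 0.05 in each comparison. The death receptor Tnfrsf10b differed by 0.61 over the 12 cortices (adjusted p = 0.571) and by 1.25 at 24 hours (adjusted p = 0.398), and Casp8, the initiator caspase, by 0.84 at E14.5 (adjusted p = 0.545). The others at an unadjusted p under 0.05 were lower in mutants: the receptor Tnfrsf21 by a log2 difference of -0.49 at E11.5, the caspase-8 inhibitor Cflar by -0.44 at E14.5 and the adaptor Tradd by -3.04 at 12 hours (adjusted p = 0.670, 0.512 and 0.913).

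**Figure D3:**
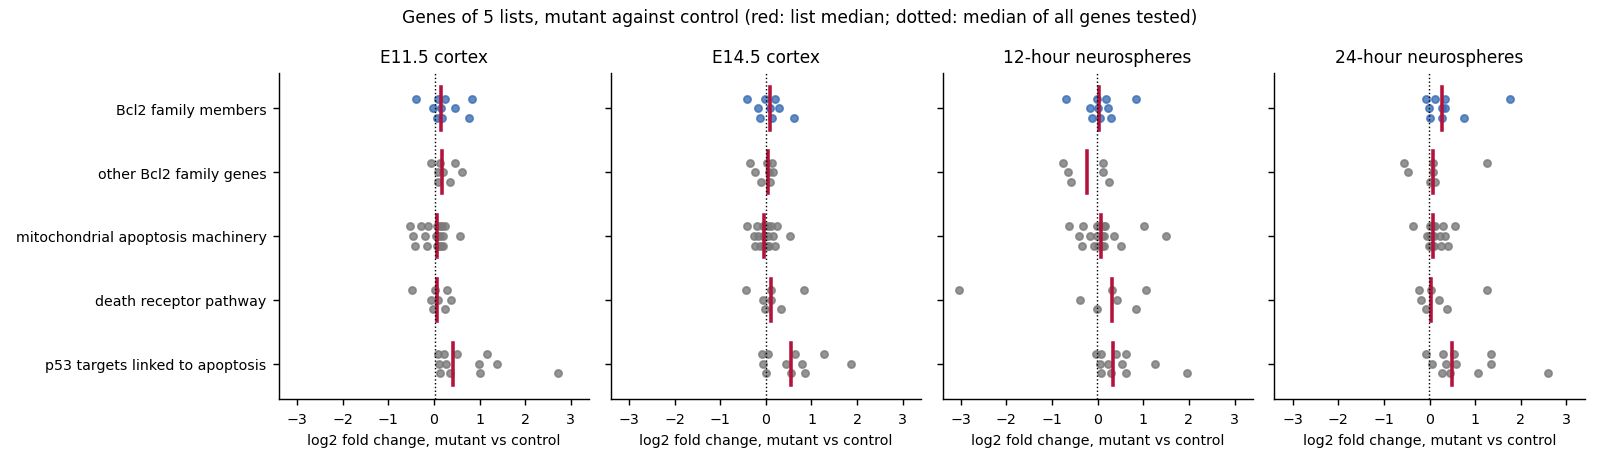
Log2 difference, mutant over control (horizontal axis, log2(normalized read count + 1)), of the genes of 5 lists in each of the 4 stages; each point is 1 tested gene, the red line is the list's median and the dotted line the median of all genes. Medians of the p53 targets are 0.42, 0.56, 0.34 and 0.50, while those of the mitochondrial machinery lie between -0.04 and 0.08.

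Age was the comparison in which most members were called. All E14.5 embryos shared a title prefix that no E11.5 embryo had, so age and litter cannot be told apart here. From E11.5 to E14.5, with 6 cortices at each age and genotype as a term, the antiapoptotic genes Bcl2 and Bcl2l1 rose with Bad, and Pmaip1, Bak1 and Bcl2l11 fell. Bcl2 went from 202 to 268 (median 226) at E11.5 to 316 to 383 at E14.5, and Bcl2l1 from 369 to 512 to 550.5 to 749.8. Neither gene overlapped between ages. Log2 differences were 0.63 (95% interval 0.43 to 0.82, limma adjusted p = 2.81e-05) and 0.48 (0.27 to 0.69, adjusted p = 0.000619).

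Pmaip1 fell furthest, from 20.2 to 44.6 at E11.5 to 0.872 to 9.03 at E14.5, by 2.28 on the log2 scale (95% interval -3.05 to -1.51, limma adjusted p = 6.8e-05). Its mean was 31.5 at E11.5 and 6.36 at E14.5. Pmaip1 therefore passed the minimum mean of 10 only through the younger cortices, and its fall and rank are given as a description. Bak1 fell from 103 to 175 to 49.4 to 83.7, a log2 difference of -0.94 (adjusted p = 0.000195). Bcl2l11 fell from 157 to 199 to 113 to 145, a log2 difference of -0.55 (adjusted p = 0.000167). None of the 3 overlapped between ages, and the fall held in controls alone and in mutants alone. The share of all genes without overlap between ages was not counted. The lack of overlap of these members, and of Bcl2 and Bcl2l1, is therefore a description only. Bad (ENSMUSG00000024959, chr19:6941861-6951899, plus strand), whose product binds BCL-XL when growth factor signalling is low, rose by 0.46 (0.22 to 0.69, adjusted p = 0.00271), with values of 341 to 426 at E11.5 and 413 to 641 at E14.5 that overlapped.

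Calls for Bax (0.37, limma adjusted p = 0.0425) and Mcl1 (-0.19, adjusted p = 0.0497) were marginal. Leaving out 1 of 8 of the 12 cortices ended the Bax call (E11.5 controls 1 and 3 and mutants 1 and 3, and E14.5 controls 4 and 5 and mutants 1 and 2), with adjusted p up to 0.112, and the difference was 0.19 in controls alone (adjusted p = 0.413). Leaving out any cortex except E11.5 control 2 or E14.5 control 4 ended the Mcl1 call, with adjusted p up to 0.113. Bbc3 (0.00, 95% interval -0.39 to 0.40) and Bid (-0.41, -0.95 to 0.14) were not called. Thus 8 of 10 members were called, 4 higher and 4 lower, where 53.1% of all genes were called, 23.8% higher and 29.3% lower. Among the 4 lower was Pmaip1, which entered the test only through its E11.5 values. Neuronal markers rose over the same interval (values above), as did intermediate progenitor markers from 989 to 1466 to 2186 to 2498, while apical progenitor markers fell from 14385 to 18131 to 9449 to 11292 and erythroid markers from 51350.2 to 82673 to 38256 to 45371; their part was not tested. The mitochondrial machinery had 2 genes higher and 9 lower of 20 tested.

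Placing E14.5 cells in culture for 12 hours was followed by a change in 4 members. Bbc3 rose from 91.5 to 135 (median 119) in the 6 cortices to 189 to 387 (median 239) in the 6 cultures. The groups did not overlap. Its log2 difference was 1.15 (SE 0.19, 95% interval 0.75 to 1.56, limma adjusted p = 0.000343), 2.22-fold on the log2(value + 1) scale, and the exact permutation p was 0.005, the smallest possible. That permutation treated the libraries as separate animals, although cortices and cultures came from the same 6 embryos, so its p overstates the evidence.

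Bcl2l11 rose from 113 to 145 to 126 to 281, by 0.78 (95% interval 0.40 to 1.15, limma adjusted p = 0.00381). Only the 12-hour library of control 3, at 126, fell within the range of the cortices. Mcl1 (ENSMUSG00000038612, chr3:95658788-95663176, plus strand) rose from 526 to 624 to 632 to 753, by 0.28 (0.09 to 0.47, adjusted p = 0.0275). Bad fell from 413 to 641 to 193 to 382, a log2 difference of -0.89 (95% interval -1.26 to -0.52, adjusted p = 0.00139), with no overlap.

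So 4 of 10 members were called by limma, by edgeR and by DESeq2, 3 higher and 1 lower, where 30.2% of all genes were called, 14.1% higher and 16.1% lower. The share of all genes without overlap between cortex and culture was not counted, so the lack of overlap of Bbc3 and Bad is a description only. The Mcl1 call ended without E14.5 control 3 (adjusted p = 0.0656) or E14.5 mutant 6 (0.0570). In controls alone the calls for Bcl2l11 (adjusted p = 0.0939) and Mcl1 ended, and so they did with the log2 share of Gm42418 as a term (0.0882 and 0.217), while Bbc3 (0.00899) and Bad (0.0409) kept theirs with that term. Endothelial markers (values above) and microglial markers, at 468 to 1036 in the cortices and 7.37 to 53.5 in the cultures, fell in the same step, as did intermediate progenitor markers, from 2186 to 2498 to 1230 to 1662, and erythroid markers rose from 38256 to 45371 to 69448 to 153171; their part was not tested. Of the p53 targets 7 of 12 were higher and 0 lower, and Cdkn1a rose by 1.41 on the log2 scale (adjusted p = 9.91e-06). Dissociation, medium and time in culture came together and cannot be told apart.

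From 12 to 24 hours 0 of 10 members were called by limma (0.292% of all genes), 0 by edgeR and 0 by DESeq2, and 0 had an unadjusted p under 0.05 (9.64% of all genes). Bbc3 differed by 0.25 (95% interval -0.12 to 0.62) and Bad by 0.29 (-0.08 to 0.67). For Bcl2 the interval was -0.23 to 0.31. A miss of the threshold here does not show that the levels were equal.

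**Figure D4:**
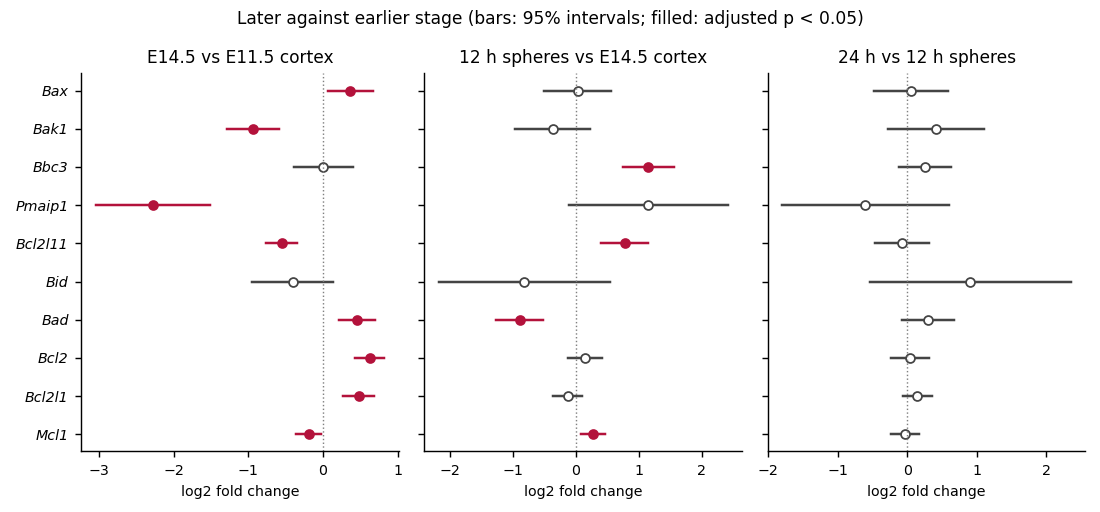
Log2 difference of each member between stages (horizontal axis, log2(normalized read count + 1), with its own scale in each panel, 6 libraries in each stage, genotype as a term); points are limma estimates, bars 95% intervals and filled points those called at an adjusted p under 0.05. From E11.5 to E14.5 there are 8 filled points, led by Pmaip1 at -2.28, from cortex to 12 hours there are 4, led by Bbc3 at 1.15, and from 12 to 24 hours there are 0. Between the ages Pmaip1 passed the minimum mean only through the E11.5 cortices.

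Promoter sequence is shown for the 3 members that came closest to a genotype difference or rose in culture and whose window held a searched motif. RefSeq windows of 300 bases on GRCm38.p6, from 250 before to 50 after a transcription start, were found for 9 of the 10 members (15 windows, as some genes have several starts). Both strands were searched for the p53 half-site and for GTAAACA, the core that forkhead factors of the FOXO class bind, which reads TGTTTAC on the other strand. These motifs were chosen with the results known. Capitals mark the match, and each line runs 5′ to 3′ on the strand of the gene.
Bax (chr7:45466849-45467148, minus strand, p53 half-site): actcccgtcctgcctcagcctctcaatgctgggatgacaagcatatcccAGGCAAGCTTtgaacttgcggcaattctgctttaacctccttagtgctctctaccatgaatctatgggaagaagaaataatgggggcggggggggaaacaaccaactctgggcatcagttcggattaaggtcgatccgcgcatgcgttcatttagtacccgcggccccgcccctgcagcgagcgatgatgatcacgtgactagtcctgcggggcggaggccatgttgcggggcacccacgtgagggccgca
Bbc3, second start (chr7:16310011-16310310, plus strand, TGTTTAC): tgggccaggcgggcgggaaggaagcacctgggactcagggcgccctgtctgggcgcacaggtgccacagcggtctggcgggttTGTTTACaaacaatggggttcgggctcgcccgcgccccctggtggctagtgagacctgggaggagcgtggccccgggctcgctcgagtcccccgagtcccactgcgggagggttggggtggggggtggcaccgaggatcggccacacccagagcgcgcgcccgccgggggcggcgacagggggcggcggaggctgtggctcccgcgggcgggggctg
Bcl2l11, first start (chr2:128125788-128126087, plus strand, GTAAACA): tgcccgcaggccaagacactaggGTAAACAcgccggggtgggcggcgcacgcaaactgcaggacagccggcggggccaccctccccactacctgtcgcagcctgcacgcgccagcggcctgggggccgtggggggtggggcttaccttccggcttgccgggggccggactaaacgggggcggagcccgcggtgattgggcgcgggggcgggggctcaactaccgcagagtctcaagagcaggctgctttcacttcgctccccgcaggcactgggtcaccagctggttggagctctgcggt

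The match begins 201 bases before the start in Bax, 167 before it in Bbc3 and 227 before it in Bcl2l11. A p53 half-site was in 1 of the 15 member windows and in 8.36% of all 32851 windows, and GTAAACA was in 2 of 15 and in 3.65% of all windows. The Bbc3 windows held no half-site in these 300 bases. A Cdkn1a window held 2 half-sites. A match is a description of letters, and binding was not measured.

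Finally, the genes whose pattern over the 24 libraries was most like each member's were listed as a description, since libraries of a stage share their tissue and depth. Of 13678 genes, Cltc (Pearson's r = 0.932) and Spry4 (0.931) were most like Bbc3, Ntm (0.94) was most like Bcl2, and Tmem198 (0.927) most like Bcl2l1. The gene most like Bcl2l11 was Bag3 (0.816), and Rps27l (0.82) was among the 3 most like Pmaip1. Within the family, Bcl2 and Bcl2l1 ran together (r = 0.65) and Bak1 ran against Bcl2 (r = -0.68).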

How the data were processed

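RNA from 24 libraries of mouse dorsal telencephalon or its cultures was read with an oligo(dT)-primed, stranded 3′ mRNA kit (QuantSeq FWD). According to the methods and the submitters' processing notes, the authors checked reads with FastQC 0.11.7, aligned them to GRCm38 with TopHat2 2.0.10 (Bowtie 1.0.0, SAMtools 0.1.19), counted them by strand with HTSeq 0.6.1 and scaled them for DESeq2. The deposited values are a signal unit, normalized read counts. Low values were whole multiples of 1 step per library (453587 of 453587, 100%, within 0.02 read), so whole reads were recovered in 23 of 24 libraries. In E11.5 control 1 the step was too near 1 to separate reads from scaled values, and count tests were run only where E11.5 libraries do not enter. As the table does not hold counts, the main test was limma 3.58.1 with a trend on log2(value + 1), on genes averaging 10 or more across the libraries that entered the fit. P-values were adjusted by Benjamini-Hochberg over all these genes, and calls were made at 0.05. Fold changes on this scale understate changes of low genes. Exact permutation tests were 2-sided. Genotype labels were shuffled within stage for genotype comparisons and interactions, and stage labels within genotype for stage comparisons. The shuffling ignored that cortices and cultures can come from the same embryo.

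Groups and embryos came from the labels. Cultures and cortices of 1 embryo share their number; deviations from group means correlated between them at r = -0.114 to 0.235 over 18 pairs (median 0.137, 12 over 0.1). Positions are from GENCODE vM21 and promoters from RefSeq, both on GRCm38. Alternatives were edgeR 4.0.16 and DESeq2 1.42.0 on whole reads, other pseudocounts, filters and scalings, embryo as a block, terms for sex, title prefix (2 among the E11.5 cortices, merging the other spelling in the descriptions of mutants 2 and 3) and Gm42418 (the last added after the data were seen), each genotype alone, and leaving out each library. On simulated data for the 24-hour comparison (13147 genes, 200 changed 2-fold) limma recovered 128 with 9 false calls. Every simulated gene had the same dispersion (spread beyond counting error), so this recovery need not hold in the real libraries. All 10 members are named. Of each other list up to 4 genes per genotype comparison could be named, those past the threshold and then those with the smallest p. The members and lists were chosen with earlier results of these data known.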

Additional observations from a re-analysis of the deposited data

How the results depend on the processing

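Alternatives were followed for 44 differences given in the text, 5 of them for Cdkn1a. Of 845 alternatives 817 kept the direction, 36 lost a call and 8 gained one. Over every member and comparison, 49 of 118 differences turned sign under some alternative, among them 24 of 49 between genotypes and 0 of the 12 called. At 24 hours Bcl2 was 0.016 with quantile normalization, 0.0008 with edgeR, 0.001 with DESeq2, 0.14 with sex as a term and 0.30 with the Gm42418 term, where Bcl2l1 was -0.11 and Mcl1 0.11. From E11.5 to E14.5 Bbc3 was -0.0007 with a pseudocount of 5 and -0.44 in mutants alone, and Bid 0.030 in controls alone. From 12 to 24 hours Bcl2 was -0.056 with the Gm42418 term. Leaving out 1 library turned 5 differences: Bbc3 from E11.5 to E14.5 (-0.12 to 0.11), Bcl2 (-0.087 to 0.083) and Bcl2l1 (-0.070 to 0.091) between genotypes at 24 hours, Mcl1 between genotypes at 12 hours (-0.0071 to 0.080) and Bcl2 from 12 to 24 hours (-0.056 to 0.10). The count of members called did not leave 1.5 times its value except in 2 comparisons. At 24 hours it was 1 in place of 0, Bcl2l11 each time, with an adjusted p under 0.1, with no filter on low values and with DESeq2. For 12-hour cultures against E14.5 cortex it was 2 in place of 4 with controls alone and with the Gm42418 term, the cause of which was not tested. Leaving out 1 library gave 6 to 8 members called for E14.5 against E11.5, 3 to 4 for 12 hours against E14.5 cortex and 0 elsewhere. With embryo as a replicate block, which pairs cortex and culture of the same animal, 4 members were called at 12 hours against cortex and 0 at 24 against 12 hours, and the block changed no other call. Depth limits Pmaip1, at 1 to 10 reads in the E14.5 cortices, and Bid, at 0 to 41 reads over the libraries.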

Other observations

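The ratio of Bax to Bcl2, a customary measure of the balance between effector and guard, was formed after the values above had been seen and has no test. At E11.5 it was 0.460, 0.424 and 0.451 in controls and 0.521, 0.589 and 0.511 in mutants. At E14.5 it was 0.285, 0.304 and 0.350 in controls and 0.651, 0.577 and 0.411 in mutants. The genotypes did not overlap at either age, as was so for 13.3% of all single genes at E11.5 and 13.7% at E14.5. Those shares are of single genes that were not selected. They are no background for a ratio formed after its members' values were seen. At E14.5 mutants 1 and 2 were female, and mutant 6 and the controls were male. In culture the genotypes overlapped, at 0.188 to 0.715 in controls and 0.237 to 0.542 in mutants after 12 hours, and 0.251 to 0.543 and 0.286 to 0.615 after 24 hours. A second ratio, of Bbc3 to Mcl1, was 0.123 to 0.149 in controls and 0.183 to 0.273 in mutants at E11.5, and it overlapped at E14.5 (0.163 to 0.252 and 0.155 to 0.219), at 12 hours (0.267 to 0.468 and 0.327 to 0.514) and at 24 hours (0.381 to 0.415 and 0.373 to 0.623).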
